A study of Mus musculus with 9 samples.

Results

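The neighbouring genes of 6 CXC chemokines, Cxcl1, Cxcl2, Cxcl3, Cxcl5, Cxcl15 and Pf4, were followed in mouse lung after injurious mechanical ventilation. They were chosen by name, not by measured value, although earlier results of these data were known at the time. They are 6 of 27203 gene IDs in the expression table. Whole lungs came from male C57BL/6 mice aged 6 to 8 weeks, and each library was made from 1 mouse. In the ventilator-induced lung injury (VILI) groups, anesthetized and paralysed mice were ventilated for 4 hours at a high tidal volume of 20 ml/kg, and lungs were taken 0 hours or 6 hours after ventilation ended, which gave the groups VILI 0 hours and VILI 6 hours. Control mice were intubated but not ventilated, and the time after the procedure at which their lungs were taken is not given in the sources used here. There were 3 libraries per group and 9 in all.

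CXC chemokines are small secreted proteins named for a pair of cysteines with 1 residue between them. Those that carry the tripeptide Glu-Leu-Arg (ELR) just before this motif bind CXCR2 on neutrophils and draw these cells out of the blood into tissue. Cxcl1 (KC), Cxcl2 (MIP-2) and Cxcl3 are made on demand by macrophages, epithelium, endothelium and neutrophils after IL-1, TNF or microbial stimulation. Cxcl5 (LIX) is made mainly by alveolar epithelium, and Cxcl15 (lungkine) is a chemokine of lung epithelium that is present without injury. Pf4 is platelet factor 4, stored in the granules of platelets, and it is not a classical neutrophil attractant.

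The ELR codons separate Pf4 from the other 5 genes, so the stretch around the first CXC motif is shown for all 6. Each line gives 36 coding bases, 5′ to 3′, from the GENCODE M21 transcripts (build GRCm38, all on the plus strand), and capitals mark the 3 codons just before the first cysteine of the motif.
Cxcl1: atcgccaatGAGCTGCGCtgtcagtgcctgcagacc
Cxcl2: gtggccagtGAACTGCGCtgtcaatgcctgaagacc
Cxcl3: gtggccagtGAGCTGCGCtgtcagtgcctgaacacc
Cxcl5: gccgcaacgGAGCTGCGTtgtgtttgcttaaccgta
Cxcl15: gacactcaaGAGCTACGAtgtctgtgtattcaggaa
Pf4: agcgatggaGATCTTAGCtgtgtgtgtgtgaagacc
The capitals code for Glu-Leu-Arg in Cxcl1, Cxcl2, Cxcl3, Cxcl5 and Cxcl15, and they do not in Pf4. Cxcl2 and Cxcl3 are close copies, with 89.7% identical bases over their aligned coding sequences, against 75.7% for Cxcl1 and Cxcl2 and 72.7% for Cxcl1 and Cxcl3. How reads were assigned among these 3 genes, of which Cxcl2 and Cxcl3 are the most alike, cannot be seen in the processed values and was not examined. Every other pair shared 37.8% to 54.7%.

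All 6 genes lie on chromosome 5 (GRCm38) on the plus strand, in a stretch of 146.6 kb that also holds Ppbp, the gene for platelet basic protein. Cxcl5 is at chr5:90759360-90761624, followed by Ppbp, Pf4 at chr5:90772435-90773383, Cxcl3 at chr5:90786103-90789600 and Cxcl15 at chr5:90794534-90803067. Cxcl1 at chr5:90891241-90893115 and Cxcl2 at chr5:90903871-90905938 stand apart at the far end. Of the 6, Cxcl15 alone overlapped another annotated gene, a small RNA on the opposite strand.

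**Figure D1:**
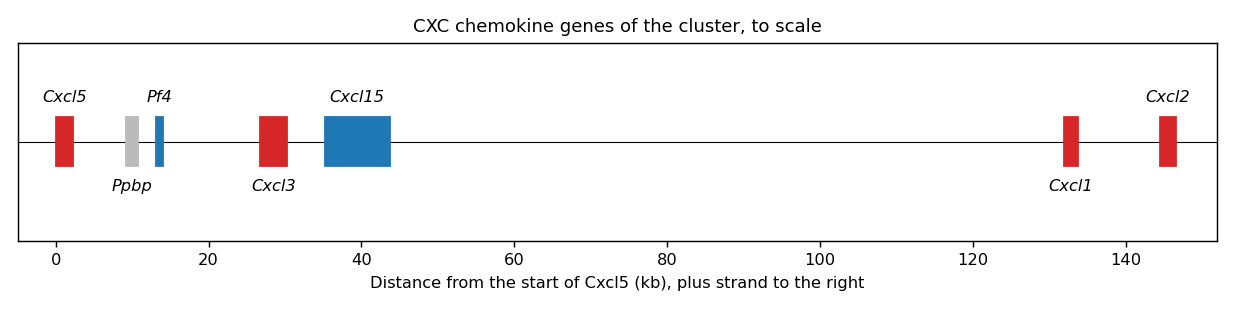
Map of the chemokine cluster with distance from the start of Cxcl5 in kb on the x axis and each box a gene to scale. Red marks Cxcl1, Cxcl2, Cxcl3 and Cxcl5, blue marks Cxcl15 and Pf4, and grey marks Ppbp, and the whole stretch covers 146.6 kb.

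The sequence upstream of these genes was searched because κB elements, the sites bound by NF-κB, are known in the promoters of Cxcl1 and Cxcl2. RefSeq promoter entries (build GRCm38.p6) matched 5 of the 6 genes, all but Cxcl5. In the 250 bases before the annotated start, the motif GGGNNTTTCC was sought on both strands, and it was found 2 times in Cxcl1, 2 times in Cxcl2, once in Cxcl3 and not in Cxcl15 or Pf4. Of 32851 promoters of that length, 1.41% held it. A second spelling, GGGNNTTCCC, was in none of the 5 and in 1.53% of all promoters, and 2.82% of all promoters held one or the other. TATAAA, also sought on both strands, was found in Cxcl3 and Cxcl15 and in 12.4% of all promoters. Letters that match are a description of sequence and not a measured binding site.

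The promoters of Cxcl1, Cxcl2, Cxcl3 and Cxcl15 are printed from base -130 to base -31 before the RefSeq start, plus strand, with κB matches in capitals, to set the 3 genes with a match beside Cxcl15, which had none.
Cxcl1 (chr5:90891115-90891214): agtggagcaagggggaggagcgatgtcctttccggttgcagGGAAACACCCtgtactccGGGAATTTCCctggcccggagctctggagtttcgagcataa
Cxcl2 (chr5:90903769-90903868): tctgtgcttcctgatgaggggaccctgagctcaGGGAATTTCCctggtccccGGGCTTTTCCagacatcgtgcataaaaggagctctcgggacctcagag
Cxcl3 (chr5:90785971-90786070): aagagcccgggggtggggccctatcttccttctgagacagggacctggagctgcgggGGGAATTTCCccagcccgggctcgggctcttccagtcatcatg
Cxcl15 (chr5:90794404-90794503): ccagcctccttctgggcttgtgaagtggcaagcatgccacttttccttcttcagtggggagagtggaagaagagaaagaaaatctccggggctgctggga
The match GGGAATTTCC stood at bases -71 to -62 in Cxcl1, -97 to -88 in Cxcl2 and -73 to -64 in Cxcl3. The other match in Cxcl1 is on the minus strand, where it reads GGGTGTTTCC, and the other match in Cxcl2 reads GGGCTTTTCC.

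**Figure D2:**
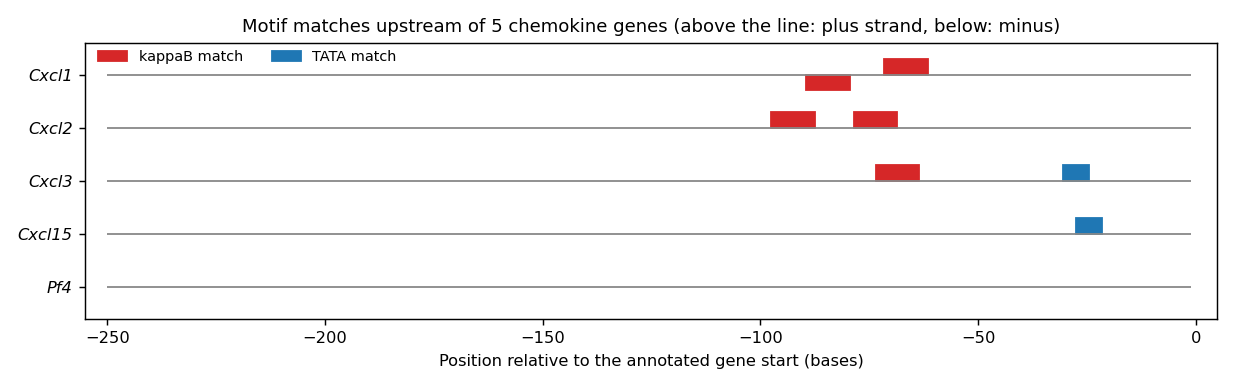
Motif matches in the 250 bases before the RefSeq start of 5 chemokine genes, with the position in bases on the x axis and 1 gene per line. Red boxes are κB matches and blue boxes are TATA matches, above the line on the plus strand and below it on the minus strand, and the 5 κB matches lie between bases -97 and -62 of Cxcl1, Cxcl2 and Cxcl3.

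Expression was measured by RNA-seq and deposited as FPKM (fragments counted per kilobase of transcript and scaled to the mapped fragments of the library), which corrects for transcript length, so levels of different genes can be set side by side. Fold changes are differences between group means of log2(FPKM + 0.1), tested across 19378 genes with limma (two-sided, Benjamini-Hochberg adjustment), and this scale understates the change of genes near 0. "Rose", "fell" and "passed" are used at an unadjusted P under 0.05, the threshold that the study also used, at which the 95% interval of the difference leaves out 0. None of the 6 genes passed an adjusted p of 0.05 in any comparison with all 9 libraries, and the p-values printed for limma are the adjusted ones. The processed table holds no counts per gene, so no counting interval is given for the low values.

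Libraries differed in ways that bear on every value at 6 hours. VILI 6 hours replicate 3 held the highest value of the 9 libraries for 5 of the 6 chemokine genes, and VILI 6 hours replicate 1 held the highest for Cxcl15. Across all genes, 136 passed an adjusted p of 0.05 for VILI 6 hours vs control, 4512 did without VILI 6 hours replicate 1, 23 without replicate 2 and 17 without replicate 3, and 0 to 3 did when a control library was left out. The lung label was borne out by its markers: summed FPKM of 8 alveolar type 2 markers was 12950 to 16040 and of 4 club cell markers 23990 to 42070, and no marker was at 0 in all libraries. In whole lung, a change in the number of cells of a type and a change in RNA per cell cannot be told apart.

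Of the 6 genes, Cxcl2 had the largest fold changes against control. Its FPKM was 0.0463, 0.0538 and 0.122 in the controls, 0.450, 1.68 and 4.84 at VILI 0 hours, and 2.30, 2.88 and 150.1 at VILI 6 hours. All ventilated lungs were above all control lungs, and the 2 times after ventilation overlapped. The mean was 0.0742 ± 0.0419 in control, 2.33 ± 2.27 at 0 hours and 51.8 ± 85.2 at 6 hours (SD, n = 3 each). Cxcl2 rose by 3.31 on the log2 scale (SE 1.41, 95% interval 0.13 to 6.48, limma adjusted p = 0.289) for VILI 0 hours vs control and by 5.90 (95% interval 2.73 to 9.08, limma adjusted p = 0.0878) for VILI 6 hours vs control.

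The later rise of Cxcl2 rested partly on 1 lung: without VILI 6 hours replicate 3 its log2 fold change against control was 3.97 (limma adjusted p = 0.0820), and without replicate 1 it was 6.95 (adjusted p = 0.0119). Its call at 0 hours was lost at a pseudocount of 1, where the change was 1.40 (adjusted p = 0.617), without a filter on low values or a mean-variance trend, and without control replicate 1, 2 or 3 or VILI 0 hours replicate 2 or 3 (log2 fold changes of 2.53 to 3.50). In a fit of only the 6 libraries compared, the call of Cxcl2 at 0 hours held after adjustment (adjusted p = 0.0375). For VILI 6 hours vs VILI 0 hours the difference was 2.60 (95% interval -0.57 to 5.77, limma adjusted p = 0.583), which did not pass. It was 0.66 without VILI 6 hours replicate 3 (adjusted p = 0.824) and passed at 3.64 without replicate 1 (adjusted p = 0.181). An exact permutation test of the spread among the 3 groups over 280 divisions of the 9 libraries gave p = 0.0143 for Cxcl2, and p = 0.0286 without VILI 6 hours replicate 3, an alternative chosen after seeing the data. With all 9 libraries the same exact permutation test gave p = 0.0857 for Cxcl1, 0.0964 for Cxcl3, 0.264 for Cxcl5, 0.125 for Cxcl15 and 0.239 for Pf4. With 3 against 3, an exact two-sided test of a pair of groups cannot go below 0.1.

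Cxcl2 was listed as 2 transcript rows, which were summed. The second row was at 0 in all 3 controls and made up 65.0% to 95.1% of the sum in the 6 ventilated lungs. Its value was 0.427, 1.20 and 3.15 FPKM at 0 hours and 2.01, 2.25 and 138.4 FPKM at 6 hours. Transcript names are not analysed here, so the 2 rows cannot be tied to annotated isoforms.

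Cxcl3, the close copy of Cxcl2, was below 0.5 FPKM in 7 of the 9 lungs. Its FPKM was 0, 0.299 and 0.0402 in control, 0.0391, 0.227 and 0.472 at VILI 0 hours, and 1.07, 0.265 and 15.7 at VILI 6 hours. The 3 groups overlapped, since VILI 6 hours replicate 2 lay below control replicate 2. Cxcl3 rose at 6 hours by 3.41 against control (SE 1.21, 95% interval 0.70 to 6.12, limma adjusted p = 0.173). That call was lost at a pseudocount of 1 (1.67, adjusted p = 0.250) and without control replicate 1 (2.99, adjusted p = 0.364) or 3 (3.24, adjusted p = 0.378). Without VILI 6 hours replicate 3 the change was 1.88 and still passed (adjusted p = 0.345). At 0 hours the change was 0.74 (95% interval -1.97 to 3.45), and 6 hours against 0 hours it was 2.67 (95% interval -0.04 to 5.38), and neither passed. The difference between the times was 1.14 without VILI 6 hours replicate 3 (adjusted p = 0.688) and passed at 3.86 without replicate 2 (adjusted p = 0.339).

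Cxcl1, the main inducible ligand of CXCR2 beside Cxcl2, did not pass against control at either time. Its FPKM was 0.643, 0.769 and 0.749 in control, 0.145, 1.33 and 0.288 at VILI 0 hours, and 0.763, 3.49 and 44.4 at VILI 6 hours. At 0 hours, 2 of the 3 lungs lay below all controls and 1 lay above them. At 6 hours replicate 1 was at the control level and replicate 3 was the highest of all 9 lungs. The log2 fold change was -0.67 (95% interval -3.38 to 2.04, limma adjusted p = 0.824) for VILI 0 hours vs control and 2.66 (95% interval -0.05 to 5.37, limma adjusted p = 0.252) for VILI 6 hours vs control. The value for VILI 0 hours vs control was -0.13 without VILI 0 hours replicate 1 and -1.41 without replicate 2.

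Between the times, Cxcl1 rose by 3.33 from 0 to 6 hours (95% interval 0.62 to 6.03, limma adjusted p = 0.415), although the ranges of the 2 groups overlapped. That call was lost without VILI 0 hours replicate 1 (2.79, adjusted p = 0.548) or 3 (3.12, adjusted p = 0.712), and without VILI 6 hours replicate 3 the difference was 1.77 and still passed (adjusted p = 0.515). Against control at 6 hours, Cxcl1 passed without VILI 6 hours replicate 1 (3.95, adjusted p = 0.0241), whereas without replicate 3 the change was 1.10 (adjusted p = 0.548).

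Cxcl5 varied widely within each group. Its FPKM was 0.395, 2.19 and 0.581 in control, 1.64, 0.138 and 0.362 at VILI 0 hours, and 7.20, 0.340 and 38.2 at VILI 6 hours. At 6 hours 2 lungs were above all controls and replicate 2 was below all of them. The log2 fold change was -0.67 at 0 hours (95% interval -3.87 to 2.52, limma adjusted p = 0.857) and 2.44 at 6 hours (95% interval -0.76 to 5.63, limma adjusted p = 0.348), and neither passed. Without VILI 6 hours replicate 2 the change at 6 hours was 4.19 and passed (adjusted p = 0.157), and without replicate 3 it was 0.97 and did not (adjusted p = 0.752). Against 0 hours the difference was 3.11 (95% interval -0.09 to 6.31), which did not pass, and it passed without VILI 6 hours replicate 2 (4.86, adjusted p = 0.190) or VILI 0 hours replicate 1 (3.91, adjusted p = 0.491) and at a pseudocount of 1 (2.24, adjusted p = 0.493). Without VILI 6 hours replicate 3 it was 1.64 and did not pass (adjusted p = 0.711).

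Cxcl15 had the highest level of the 6 genes in every lung. Its FPKM was 214.8, 303.6 and 237.5 in control, 407.5, 395.0 and 515.1 at VILI 0 hours, and 561.3, 323.4 and 240.7 at VILI 6 hours. All 3 lungs at 0 hours lay above all 3 controls, while the 6-hour lungs spread from the control range to the highest value of the series. The mean rose from 252.0 ± 46.1 in control to 439.2 ± 66.0 FPKM at 0 hours, a log2 fold change of 0.81 (SE 0.28, 95% interval 0.19 to 1.43, limma adjusted p = 0.202). The call was lost without control replicate 1 (0.70, adjusted p = 0.482) or VILI 0 hours replicate 3 (0.69, adjusted p = 0.459), whereas the adjusted p was 0.0262 without VILI 6 hours replicate 1 and 0.0256 in a fit of only the 6 libraries compared.

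At 6 hours the log2 fold change of Cxcl15 against control was 0.50 (95% interval -0.12 to 1.12, adjusted p = 0.324), and it passed without VILI 6 hours replicate 3 (0.77, adjusted p = 0.227). Without replicate 1 it was 0.16 (adjusted p = 0.553), and the difference from 0 hours was then -0.64 and passed (adjusted p = 0.105), against -0.31 (adjusted p = 0.757) with all lungs. The 6-hour lungs lay on both sides of the 0-hour lungs: replicate 1 was above all of these, and replicates 2 and 3 were below all of them. Shifting every library to a common median, which moved the median log2 fold change of all genes from -0.07 to 0.05 at 0 hours and from -0.09 to 0.04 at 6 hours, gave Cxcl15 at 6 hours a change of 0.63 against control that passed (adjusted p = 0.196). The club cell marker sum was 25370 to 27960 FPKM in control, 30300 to 33240 at 0 hours, and 42070, 25290 and 23990 in VILI 6 hours replicates 1 to 3, so the lung highest in Cxcl15 was also highest in this sum. Most of the sum is Scgb1a1, and that lung was also highest for Scgb3a1 and Cyp2f2 but not for Scgb3a2. The same lung was also highest in the summed FPKM of 5 alveolar type 1 markers (1371) and of 8 alveolar macrophage markers (640). The alveolar type 2 marker sum, 13780 to 15120 in control and 13700 to 16040 at 0 hours, did not separate the groups. Most of it is Sftpc, and it was lowest in VILI 6 hours replicate 1 (12950). All 0-hour lungs lay above all controls for 4 of 8 type 2 markers, 1 of 4 club cell markers and 12.0% of all genes. The part of cell composition in the Cxcl15 values was not tested.

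Pf4 did not pass in any comparison with all lungs. Its FPKM was 11.9, 10.5 and 11.6 in control, 12.6, 10.2 and 12.0 at VILI 0 hours, and 11.6, 13.3 and 17.1 at VILI 6 hours. The groups overlapped, although VILI 6 hours replicates 2 and 3 lay above all other lungs. The log2 fold change was 0.03 at 0 hours (95% interval -0.32 to 0.37, limma adjusted p = 0.952) and 0.28 at 6 hours (95% interval -0.06 to 0.63, limma adjusted p = 0.319). Without VILI 6 hours replicate 1 it passed against control (0.41, adjusted p = 0.0685) and against 0 hours (0.38, adjusted p = 0.165). The change at 6 hours came mostly from replicate 3: replicates 1, 2 and 3 lay 0.028, 0.228 and 0.587 above the control mean on the log2 scale. The summed FPKM of 10 platelet and megakaryocyte markers was 30.3 to 40.5 in control, 36.4 to 50.7 at 0 hours and 28.7, 59.8 and 66.5 at 6 hours, in the same order over the 6-hour lungs as Pf4. Their part in the Pf4 values was not tested.

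**Figure D3:**
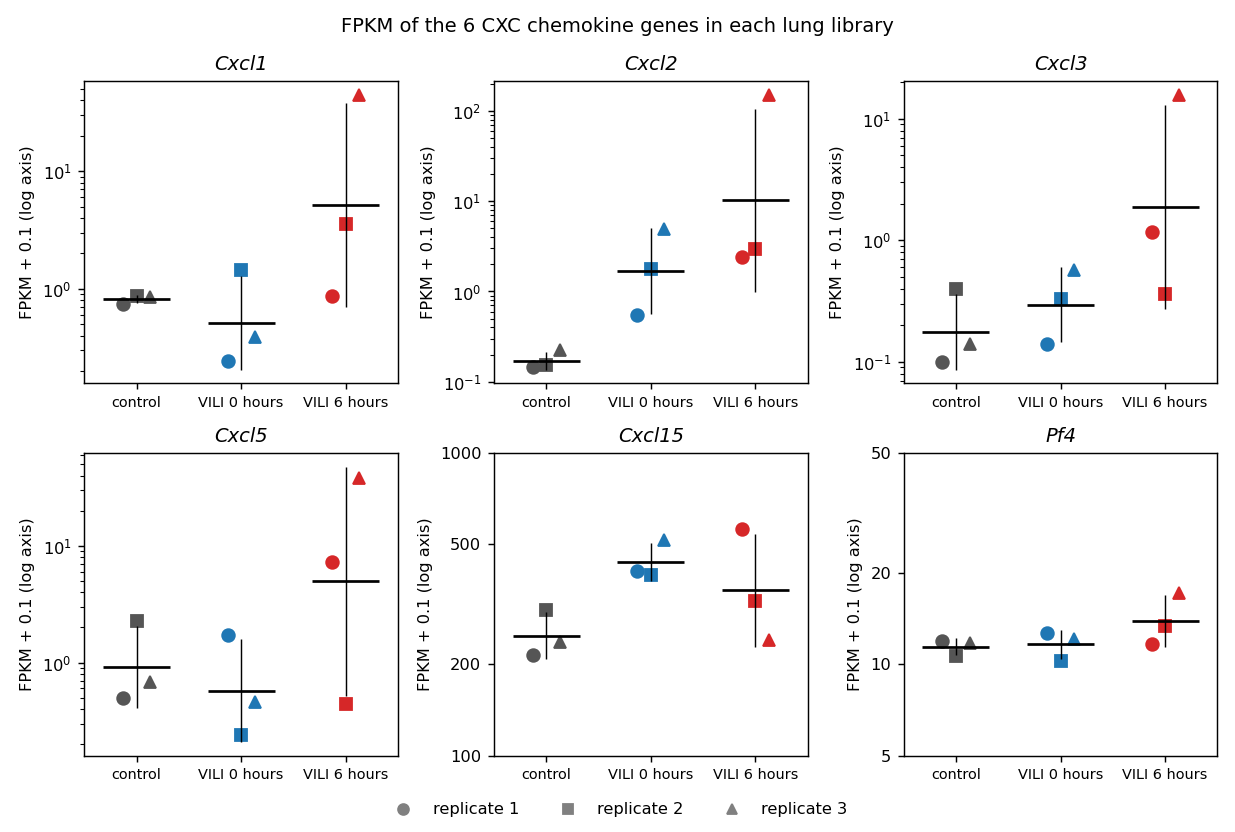
FPKM + 0.1 of each chemokine gene on a log axis by group, with 1 point per lung, the symbol giving the replicate number and each panel having its own range. Horizontal lines are means and vertical lines ± 1 SD of the log values (n = 3), and VILI 6 hours replicate 3 (triangle) is the highest lung in the Cxcl1, Cxcl2, Cxcl3, Cxcl5 and Pf4 panels.

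For VILI 0 hours vs control, 2 of the 6 genes rose (Cxcl2 and Cxcl15) and none fell, while 6.81% of all genes tested rose and 9.35% fell. Both also had all 3 ventilated lungs above all controls, as did 12.0% of all genes. At an adjusted p of 0.05, limma called 0 of the 6 and 0.284% of all genes, and 2 of the 6 (Cxcl2 and Cxcl15) when only the 6 libraries compared were fitted, a fit that called 1597 genes against 55. The median log2 fold change of the 6 was 0.38, beside -0.07 for all genes, and it was 0.09 at a pseudocount of 1, 0.13 without VILI 0 hours replicate 3 and 0.19 without control replicate 1.

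For VILI 6 hours vs control, 2 of the 6 rose (Cxcl2 and Cxcl3) and none fell, while 8.17% of all genes rose and 12.2% fell. Cxcl2 alone had no overlap with the controls, as did 9.64% of all genes in that direction. With adjustment, limma called 0 of the 6 and 0.702% of all genes. The median of the 6 was 2.55 beside -0.09 for all genes, and it was 1.04 without VILI 6 hours replicate 3. Both comparisons use the same 3 control lungs.

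For VILI 6 hours vs VILI 0 hours, 1 of the 6 rose (Cxcl1) and none fell, while 5.06% of all genes rose and 4.94% fell. None of the 6 had groups that did not overlap, against 6.25% of all genes higher at 6 hours. With adjustment, limma called 0 of the 6 and 0.0% of all genes. The median of the 6 was 2.63, beside -0.02 for all genes, and it was 0.90 without VILI 6 hours replicate 3.

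**Figure D4:**
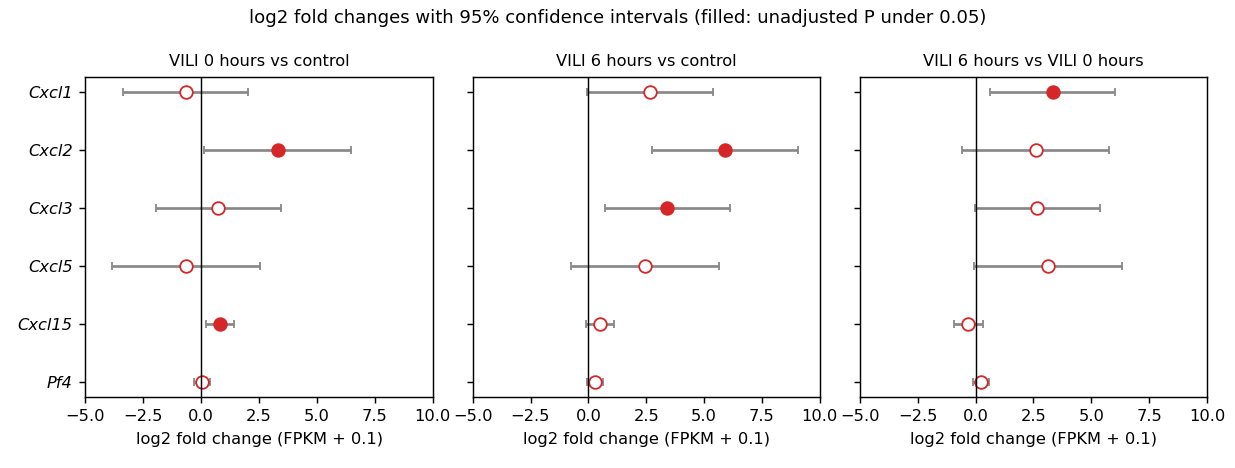
log2 fold changes of FPKM + 0.1 (x axis) for the 6 chemokine genes in the 3 comparisons, each point from 3 against 3 lungs with its limma 95% confidence interval. Filled points have an unadjusted P under 0.05: Cxcl2 and Cxcl15 in the first panel, Cxcl2 and Cxcl3 in the second and Cxcl1 in the third.

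The spread between lungs was large for the inducible ligands at both times after ventilation. The SD of log2(FPKM + 0.1) among the VILI 6 hours lungs was 2.88 for Cxcl1, 3.36 for Cxcl2, 2.78 for Cxcl3 and 3.26 for Cxcl5, beside a median of 0.329 over all genes tested. Each of these exceeded the SD of at least 99.8% of genes in that group. For Cxcl15 the share of genes with a smaller SD was 77.8%, and for Pf4 it was 43.2%. Among the VILI 0 hours lungs, the SD exceeded that of 98.9% of genes for Cxcl1, 99.6% for Cxcl2, 96.9% for Cxcl3 and 99.3% for Cxcl5. Among the controls the SD was 0.122 for Cxcl1, 0.33 for Cxcl2, 1.04 for Cxcl3 and 1.16 for Cxcl5, beside a median of 0.133. In the same order these exceeded 46.3%, 81.6%, 97.2% and 97.9% of genes.

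The makeup of the chemokine RNA differed in 1 lung. Cxcl15 made up 94.1% to 96.7% of the summed FPKM of the 6 genes in 8 lungs and 47.6% in VILI 6 hours replicate 3. The sum of Cxcl1, Cxcl2, Cxcl3 and Cxcl5 was 1.08 to 3.31 FPKM in control, 2.27 to 5.97 at 0 hours, and 11.3, 6.97 and 248.3 at 6 hours. All 6-hour lungs thus lay above all others in this sum, the closest at 6.97 against 5.97 FPKM. VILI 6 hours replicate 3 lay far above the rest. None of the 6 genes alone was without overlap between the times, against 6.25% of all genes higher at 6 hours. The leading ligand of the 4 was Cxcl1 or Cxcl5 in the controls, Cxcl5 or Cxcl2 at 0 hours, and Cxcl5, Cxcl1 and Cxcl2 in the 6-hour lungs in order of replicate number.

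Markers of the neutrophil, the target cell of the ELR ligands, were high at both times after ventilation. Of 11 neutrophil markers, 9 rose at 0 hours and 10 at 6 hours against control (limma, 6 and 8 of them at an adjusted p under 0.05), and none passed between the times. Of all genes, 6.81% and 8.17% rose, and 0.284% and 0.702% passed after adjustment. The adjusted calls depended on the full set of libraries: over all genes 1 to 4 passed at 0 hours when a control library or VILI 0 hours replicate 2 or 3 was left out, against 55. Their summed FPKM was 53.8 to 65.8 in control, 576 to 1038 at 0 hours and 495, 1035 and 2125 at 6 hours. The lung with the highest chemokine sum, VILI 6 hours replicate 3, also had the highest neutrophil sum, most of which is S100a8 and S100a9, and the highest value of every marker on the list but Csf3r. Since neutrophils can make Cxcl2, these values stand beside its rise, and their part in it was not tested.

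**Figure D5:**
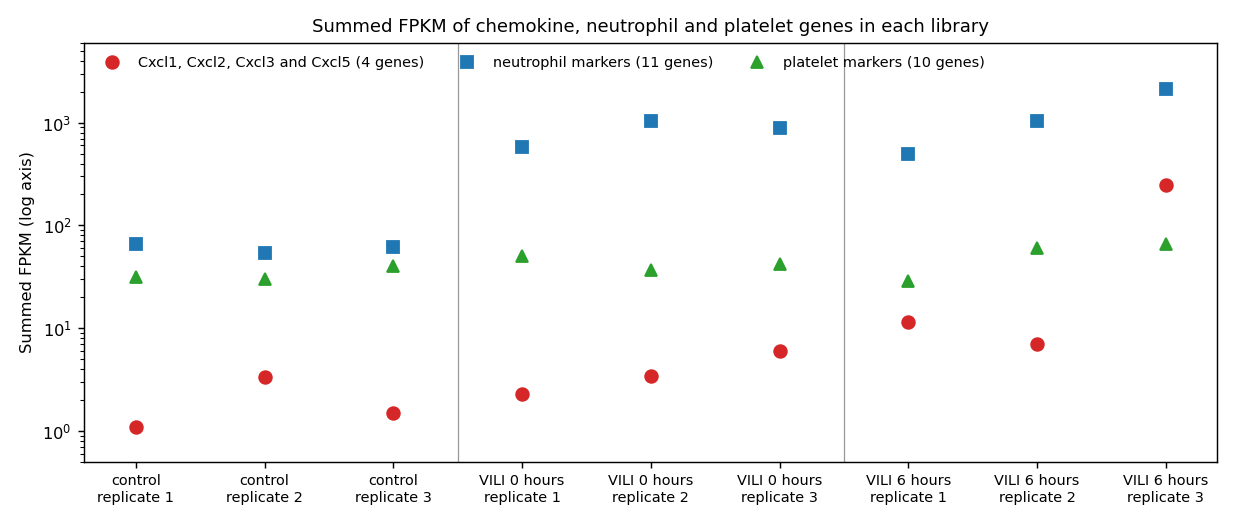
Summed FPKM on a log axis in each of the 9 lungs for Cxcl1, Cxcl2, Cxcl3 and Cxcl5 together (circles), 11 neutrophil markers (squares) and 10 platelet markers (triangles). The neutrophil sum is 576 or more in 5 of the 6 ventilated lungs and 495 in the other, against at most 65.8 in control, while the chemokine sum reaches 248.3 in 1 lung.

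Among 8 CXC chemokine receptors, Cxcr2, the main receptor of the ELR ligands and also 1 of the neutrophil markers, rose most. At each time 1 of the 8 rose, beside 6.81% of all genes at 0 hours and 8.17% at 6 hours, and 2 fell at 6 hours, when 12.2% of all genes fell. Its FPKM was 1.53, 1.33 and 1.24 in control, 10.6, 20.9 and 23.3 at 0 hours and 11.6, 19.8 and 27.0 at 6 hours. The log2 fold change was 3.57 at 0 hours (SE 0.34, limma adjusted p = 0.0179) and 3.66 at 6 hours (SE 0.34, limma adjusted p = 0.00959), with 0.09 between the times (adjusted p = 0.954). The unadjusted call held at both times in every fit run, and without a control library the adjusted p was 0.0521 to 0.159 at 0 hours and 0.0540 to 0.102 at 6 hours. At 0 hours it was also 0.0544 without the filter, 0.0816 on the highest row, and 0.0612 and 0.0704 without VILI 0 hours replicate 2 or 3, and at 6 hours it was 0.0527 on the highest row. No other receptor rose against control. Cxcr5, a B cell receptor, fell at 6 hours by 1.49 on the log2 scale (adjusted p = 0.0702) and Cxcr4, the receptor of Cxcl12, fell by 0.72 (adjusted p = 0.178). Between the times, Cxcr5 fell by 0.998 (adjusted p = 0.368) and Ackr3, a scavenger of Cxcl12, rose by 1.16 (adjusted p = 0.412).

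Of 8 other CXC and platelet ligands tested, 1 rose and 1 fell at 0 hours, 1 rose and 2 fell at 6 hours, and 1 rose between the times, beside 6.81% of all genes that rose and 9.35% that fell at 0 hours, 8.17% and 12.2% at 6 hours, and 5.06% and 4.94% between the times. Cxcl17, an epithelial ligand, rose by 0.47 at 0 hours (adjusted p = 0.246) and 0.83 at 6 hours (adjusted p = 0.0716). Cxcl14 fell by 1.19 at 0 hours (adjusted p = 0.0875) and by 0.94 at 6 hours (adjusted p = 0.123), and Cxcl12, which holds cells in bone marrow, fell by 0.90 at 6 hours (adjusted p = 0.109). Cxcl10, an interferon-induced ligand of CXCR3, rose by 3.23 between the times (adjusted p = 0.474), and its FPKM of 59.3 in VILI 6 hours replicate 3 stood against at most 2.15 elsewhere. Ppbp, the platelet gene beside Pf4, differed from control by 0.39 on the log2 scale at 0 hours (adjusted p = 0.609) and by 0.37 at 6 hours (adjusted p = 0.542), and neither passed. Without VILI 6 hours replicate 1, Ppbp passed at 6 hours against control at 0.84 (adjusted p = 0.00790) and between the times at 0.45 (adjusted p = 0.140), and at 0 hours with its difference of 0.39 (adjusted p = 0.134), as it did there when only the 6 libraries compared were fitted (adjusted p = 0.138). Without replicate 3 its difference at 6 hours was 0.10.

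Of 13 upstream cytokines and NF-κB genes, 2 rose at 0 hours, 7 at 6 hours and 6 between the times, and none fell, beside 6.81%, 8.17% and 5.06% of all genes that rose. Il1b, which drives Cxcl1 and Cxcl2 transcription, was at 3.27, 4.48 and 4.95 FPKM in control, 19.7, 32.5 and 82.7 at 0 hours and 26.4, 14.0 and 83.4 at 6 hours, with all ventilated lungs above all controls. It rose by 3.14 at 0 hours (SE 0.64, adjusted p = 0.0757) and 2.88 at 6 hours (SE 0.64, adjusted p = 0.0733). Nfkbia, the NF-κB inhibitor that NF-κB itself induces, rose by 1.44 (adjusted p = 0.238) and 1.74 (adjusted p = 0.139), although its 52.5 FPKM in VILI 6 hours replicate 1 was close to the 44.5 to 46.5 of the controls.

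Il6, a cytokine of the acute-phase response, rose by 2.93 at 6 hours against control (adjusted p = 0.194) and by 3.02 between the times (adjusted p = 0.423), from FPKM of 0.306, 1.58 and 19.3 in the 6-hour lungs. The NF-κB subunit Relb rose by 1.01 at 6 hours (adjusted p = 0.166) and by 1.03 between the times (adjusted p = 0.393), and Rela and Nfkb2 rose between the times by 0.34 (adjusted p = 0.407) and 0.82 (adjusted p = 0.367). Tnf did not pass, with a log2 difference from control of 0.06 at 0 hours (adjusted p = 0.981) and of 1.49 at 6 hours (adjusted p = 0.396), and its 13.6 FPKM in VILI 6 hours replicate 3 stood against at most 1.79 in the other lungs. At 6 hours against control, Tnf was at 0.23 without replicate 3 (adjusted p = 0.893) and passed at 2.58 without replicate 2 (adjusted p = 0.223), as it did between the times (2.52, adjusted p = 0.360).

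Chemokine messages are short-lived, and 5 genes for factors that decay such messages were examined. At 0 hours 1 rose and 1 fell, beside 6.81% and 9.35% of all genes, and at 6 hours 2 rose and none fell, beside 8.17% and 12.2%. Zfp36 (tristetraprolin) rose by 1.33 at 0 hours (adjusted p = 0.123) and 1.21 at 6 hours (adjusted p = 0.128). Zc3h12a (Regnase-1) rose by 1.59 at 6 hours (adjusted p = 0.171), with 51.2 FPKM in replicate 3 against 7.48 and 11.5 in the other 6-hour lungs. Zfp36l1 fell by 0.49 at 0 hours (adjusted p = 0.172). No gene of this list passed between the times.

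Many calls on these lists were lost in other fits. Those of Cxcl17 and Nfkbia at 0 hours were lost without any of several libraries, with log2 fold changes of 0.36 to 0.48 and 1.32 to 1.46. At 6 hours, Il6 was lost without VILI 6 hours replicate 3 (1.41) or control replicate 1 or 3, at a pseudocount of 1 (1.75) and in a fit of the 6 libraries compared. Relb was lost without VILI 6 hours replicate 3 (0.66) or control replicate 3 (0.78), and Cxcr4 without VILI 6 hours replicate 2 or 3 (-0.56 each) or control replicate 1. Zc3h12a went to 0.77 without VILI 6 hours replicate 3 and still passed.

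Between the times, the call of Cxcl10 was lost without VILI 6 hours replicate 3 (1.36), without any control, without VILI 0 hours replicate 1 or 3, at a pseudocount of 1, without the filter or the trend, and in a fit of the 6 libraries compared. Rela and Relb were lost without VILI 6 hours replicate 3 (0.25 and 0.68) or VILI 0 hours replicate 3, Rela also with a common median, and Ackr3 without VILI 6 hours replicate 3 (0.70) or 2 or VILI 0 hours replicate 2. Nfkb2 went to 0.48 without VILI 6 hours replicate 3 and still passed. Il6 was at 1.498 and still passed without VILI 6 hours replicate 3, and its call was lost without VILI 0 hours replicate 2 or 3 (2.73 and 2.94) and at a pseudocount of 1.

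Leaving out VILI 6 hours replicate 1 raised the number of genes that passed after adjustment at 6 hours to 4512 of 19378, from 136 with all lungs, and genes named here were among them: Nfkbia (2.51), Il6 (4.20), Zfp36 (1.66), Zc3h12a (2.15) and Cxcl17 (0.96) and, as genes that fell, Cxcl12 (-1.09), Cxcr4 (-1.05) and Cxcr5 (-1.60), as well as Cxcr2 and Il1b. Taking only the transcript row with the highest mean ended the calls of Il6 at 6 hours (1.83, adjusted p = 0.440) and, between the times, of Relb (1.16), Nfkb2 (0.80), Il6 (2.65) and Cxcr5 (-1.84), and it gave Relb a change of 4.68 at 6 hours.

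The genes whose pattern over the 9 lungs was most like each chemokine were sought among 13983 genes by Pearson r of log2(FPKM + 0.1), as a description in which group differences and the high values of 1 lung are shared. For Cxcl1 they were Map2k3, Plscr1 and Cxcl10 (r = 0.980, 0.972 and 0.967). For Cxcl2 they were Il13ra1, the inflammasome sensor Nlrp3 and the ferritin heavy chain Fth1 (r = 0.978, 0.976 and 0.974), and Nlrp3 went from 1.13 to 1.37 FPKM in control to 2.04 to 5.71 at 6 hours.

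For Cxcl3 the nearest genes were Car13, Sgms2 and Dyrk3 (r = 0.951, 0.951 and 0.947). For Cxcl5 they were Crybg2, Ccl20 and Cdcp1 (r = 0.931, 0.929 and 0.926). Ccl20, a ligand of CCR6 made by epithelium, was at 87.7 FPKM in VILI 6 hours replicate 3, 1.88 in replicate 1 and at most 0.730 in the other 7 lungs. Cxcl15 followed the fatty acid synthase gene Fasn, the sodium channel subunit Scnn1b and Tspan1 (r = 0.944, 0.942 and 0.928). Pf4 followed Treml1, a platelet receptor that is also on the platelet marker list, with Afmid and Ino80c (r = 0.975, 0.974 and 0.968).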

How the data were processed

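Lung RNA was depleted of ribosomal RNA and sequenced by the authors, per their methods; the labels and methods name different library kits and sequencers. The submitters' processing notes name Bowtie2 2.0.6, TopHat2 2.0.9, Cuffdiff 2.1.1 and GRCm38. The deposited values are FPKM per transcript, 60108 transcripts of 27203 gene IDs, and how Cuffdiff normalized the libraries is not given in the sources used here. Library sums were 366360 to 388459 FPKM; the study states read totals for each library, which were not used here, since the deposited table holds no counts per gene.

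FPKM were summed over the rows of each gene, and symbols came from GENCODE M21 (23580 of 23713 Ensembl IDs matched). Genes with a mean FPKM of at least 0.1 (19378, all 6 chemokine genes among them) were tested on log2(FPKM + 0.1) with limma 3.58.1 in R 4.3.3, all 3 groups in 1 fit with a mean-variance trend, two-sided, with Benjamini-Hochberg adjustment; the code was tested on simulated data. Separate mice are replicates. Exact permutation tests covered all divisions of the libraries. Named genes were the 6 chemokines, up to 4 called genes per list and comparison by smallest P, always Cxcr2, Ppbp, Il1b and Tnf, and the 3 genes most like each chemokine (mean FPKM of at least 1). Cxcl11 was not analysed here. The chemokine genes, lists and tests were chosen with earlier results of these data known. Alternatives changed the pseudocount, filter, centring, trend, transcript row, libraries fitted and replicate block, and left out each library.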

Additional observations from a re-analysis of the deposited data

Results flagged for a closer look

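The change of Cxcl1 against control differed between the 2 times after ventilation at an unadjusted P under 0.05 (limma). That call was lost without VILI 0 hours replicate 1 or 3, and an exact permutation test of these 2 groups gave p = 0.2. The difference, VILI 6 hours vs VILI 0 hours, was 3.33 on the log2 scale (95% interval 0.62 to 6.03, limma adjusted p = 0.415), with a log2 fold change against control of -0.67 at 0 hours and 2.66 at 6 hours. All 3 lungs at 6 hours were above 2 of the 3 lungs at 0 hours, and VILI 0 hours replicate 2, at 1.33 FPKM, was above VILI 6 hours replicate 1, at 0.763 FPKM. The other 5 chemokine genes did not pass this test, and groups of 3 are too small for a test of single outlying lungs.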

How the results depend on the processing

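For VILI 0 hours vs control, 2 chemokine genes passed an unadjusted P of 0.05, and 1 did at a pseudocount of 1, without a filter on low values or without a mean-variance trend; leaving out 1 library at a time gave 0 (without control replicate 1 or VILI 0 hours replicate 3) to 2, with 1 without control replicate 2 or 3 or VILI 0 hours replicate 2. For VILI 6 hours vs control, 2 passed, 1 did at a pseudocount of 1, and leaving out 1 library gave 1 (without control replicate 1 or 3) to 4 (without VILI 6 hours replicate 1). For VILI 6 hours vs VILI 0 hours, 1 passed, 2 did at a pseudocount of 1, and leaving out 1 library gave 0 to 4: none with VILI 0 hours replicate 3 left out, 4 with VILI 6 hours replicate 1 left out and 3 with its replicate 2 left out. Without VILI 6 hours replicate 1, 7526 of 19378 genes passed the unadjusted P against control and 4350 between the times, against 3952 and 1938 with all libraries. The median log2 fold change of the 6 genes at 0 hours against control, 0.38, was 0.09 at a pseudocount of 1 and ranged with 1 library left out from 0.13 (without VILI 0 hours replicate 3) to 0.47. With 1 library left out, the median ranged from 1.04 to 3.55 against control at 6 hours and from 0.90 to 3.54 between the times, lowest without VILI 6 hours replicate 3. The exact permutation p of Cxcl2 was 0.0893 at a pseudocount of 1 against 0.0143.

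Replicate numbers did not pair the lungs: correlations of same-numbered lungs' deviations from their group means were -0.221 to 0.017. With the replicate block, 2, 3 and 3 chemokine genes passed in the 3 comparisons. The direction of 5 small differences turned in some fits with 1 library left out, whose range was -0.038 to 0.117 for Pf4 and -0.19 to 0.53 for Tnf at 0 hours against control. Between the times it was -0.26 to 0.42 for Cxcr2, which was also -0.17 on its highest row, -0.96 to 0.32 for Il1b and -0.29 to 0.45 for Ppbp. Fitting only the 6 libraries compared called 1597 genes at an adjusted p under 0.05 for VILI 0 hours vs control, against 55 in the fit of 9. Of 90 values under these alternatives of the 5 chemokine results called with all libraries, 15 lost the call, and of 234 values of the 13 not called, 15 gained one. Without counts per gene, the counting error of values below 1 FPKM is not known.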

Other observations

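Markers of further lung cell types were counted in the same fit, in which 6.81% of all genes rose and 9.35% fell at 0 hours against control, 8.17% and 12.2% at 6 hours, and 5.06% and 4.94% between the times; many of the counts that follow are near those shares. Of 8 alveolar macrophage markers, 4 rose at 0 hours against control, and at 6 hours 1 rose and 1 fell; 4 fell between the times. Of 8 alveolar type 2 markers 1 rose at 0 hours and 1 fell at 6 hours, and of 4 club cell markers 1 rose at 6 hours. Of 10 platelet markers, 1 rose at 6 hours against control and 1 between the times. Of 5 alveolar type 1 markers 2 rose at each time, of 5 endothelial markers 1 fell at each time, and of 5 fibroblast markers 1 rose and 2 fell at 0 hours, 2 fell at 6 hours and 1 fell between the times. Chil3, the most abundant of the macrophage markers, was at 129 to 186 FPKM in control, 209 to 301 at 0 hours and 527.9, 141.9 and 221.3 in VILI 6 hours replicates 1 to 3. VILI 6 hours replicate 1 was the highest lung for Chil3. The macrophage markers Ear1 and Siglecf were lower in all VILI 6 hours lungs, that lung included, than in all VILI 0 hours lungs. Ear1 was at 10.65 to 12.55 against 17.6 to 32.8 FPKM, and Siglecf at 3.235 to 3.62 against 4.84 to 6.37 FPKM.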
